A study of Mus musculus with 10 samples.

Results

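Nitric oxide and cyclic GMP (cGMP) signalling was followed through 10 genes in mouse oviducts with and without the progesterone receptor. The genes were taken by name: the nitric oxide synthases Nos1, Nos2 and Nos3, the soluble guanylyl cyclase subunits Gucy1a1 and Gucy1b1, the cGMP-dependent kinases Prkg1 and Prkg2, the cGMP phosphodiesterase Pde5a, and the natriuretic peptide receptors Npr2 and Npr3. All 10 were found among the 19938 genes named on the array. Each was read through 1 probe set except Prkg2, which had 2 and was represented by the one with the higher mean over all arrays.

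The tissue was whole oviduct of pre-pubertal mice that carried a lacZ insertion in the progesterone receptor gene, Pgr, which disrupts both receptor isoforms. Homozygotes are called PRKO, and the controls were heterozygotes, PR+/-, which are fertile and carry 1 disrupted allele themselves. Every animal was injected at day 21 to 23 of age with 5 IU of equine chorionic gonadotropin, which drives follicle growth, and 44 to 47 h later with 5 IU of human chorionic gonadotropin (hCG) as the ovulatory trigger. Tissue was taken 8 h after hCG. Each array held the oviducts of 3 animals as 1 pool, with 5 pools and 15 animals per genotype. The knock-in is carried by all cells of the animal, so the ovary and other tissues lacked the receptor as well, and no pool was taken before hCG. The comparison asks which transcripts differ in the oviduct when the receptor is missing shortly before ovulation.

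In this pathway nitric oxide, made from arginine by the nitric oxide synthases, diffuses into neighbouring cells and binds soluble guanylyl cyclase, an enzyme of an alpha and a beta subunit that then makes cGMP. Natriuretic peptides raise cGMP by another route, through receptors that are guanylyl cyclases themselves. In smooth muscle cGMP activates the kinase encoded by Prkg1, which relaxes the cell, and phosphodiesterases such as that encoded by Pde5a, the target of sildenafil, break cGMP down again. In the oviduct the pathway is studied for its part in relaxing the muscle that moves eggs and embryos.

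Values are log2 signals, so a difference of 1 is a doubling, and ± gives the SD over pools for a level and the SE for a difference. Pgr, the disrupted gene, was at 7.42 ± 0.11 (SD, n = 5) in PR+/- and at 6.36 ± 0.037 (SD, n = 5) in PRKO and did not overlap between genotypes (two-sided exact permutation p = 0.00794, the smallest possible with 252 arrangements). The interquartile range of an array's gene signals was 3.20 to 3.38 in PR+/- and 2.93 to 3.27 in PRKO. Markers of the oviduct epithelium were present on every array. The mean log2 signal of 7 multiciliated cell genes was 8.23 to 8.45 in PR+/- and 8.35 to 8.545 in PRKO. That of 5 secretory cell genes was 9.24 to 9.46 and 8.83 to 9.27. At a limma adjusted p under 0.05, 1 multiciliated gene rose and 6 did not pass (14.3% called). Of the secretory genes, 2 fell and 3 did not pass (40% called, against 4.96% of all genes). Cyp11a1, which starts steroid synthesis in the ovary, stood at 7.04 in PR+/- replicate 4 and 7.10 in PRKO replicate 3 and at 3.05 to 4.68 on the other 8 arrays. Results on which those 2 pools bear are therefore also given without them.

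Pde5a was the member that changed. Its 5 PR+/- pools had log2 signals of 7.79, 7.54, 7.64, 7.72 and 7.73, and its 5 PRKO pools 6.19, 6.59, 6.78, 6.67 and 6.63. The genotypes did not overlap, and the gap between the lowest PR+/- pool and the highest PRKO pool was wider than the whole span of the PR+/- pools. Pde5a fell by 1.11 ± 0.10 on the log2 scale (95% interval -1.33 to -0.89, limma adjusted p = 1.37e-05), which left 46.2% of the PR+/- signal. PRKO replicate 1 was the lowest pool, and without it the log2 difference was -1.02. Without the 2 pools high in Cyp11a1 the difference was -1.16 (limma adjusted p = 0.000116).

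Of the 10 genes, 1 fell, 0 rose and 9 did not reach the Benjamini-Hochberg adjusted p of 0.05 in limma. Over all 19938 genes tested, 4.96% were called, 3.87% as lower and 1.09% as higher in PRKO, so 1 member of 10 is near that background in number. The pools did not overlap for 1 member, Pde5a, and for 7.20% of all genes. At an unadjusted p under 0.05 in limma the members counted 1 lower and 1 higher. All 19938 genes counted 2208 lower and 2007 higher, so the members were near that background as well. The median log2 difference of the members was 0.0090, against 0.026 for all genes. The other 9 members had log2 differences of -0.08 to 0.30, and their 95% intervals lay between -0.28 and 0.55. None of those intervals reached that of Pde5a, whose upper bound was -0.89.

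**Figure D1:**
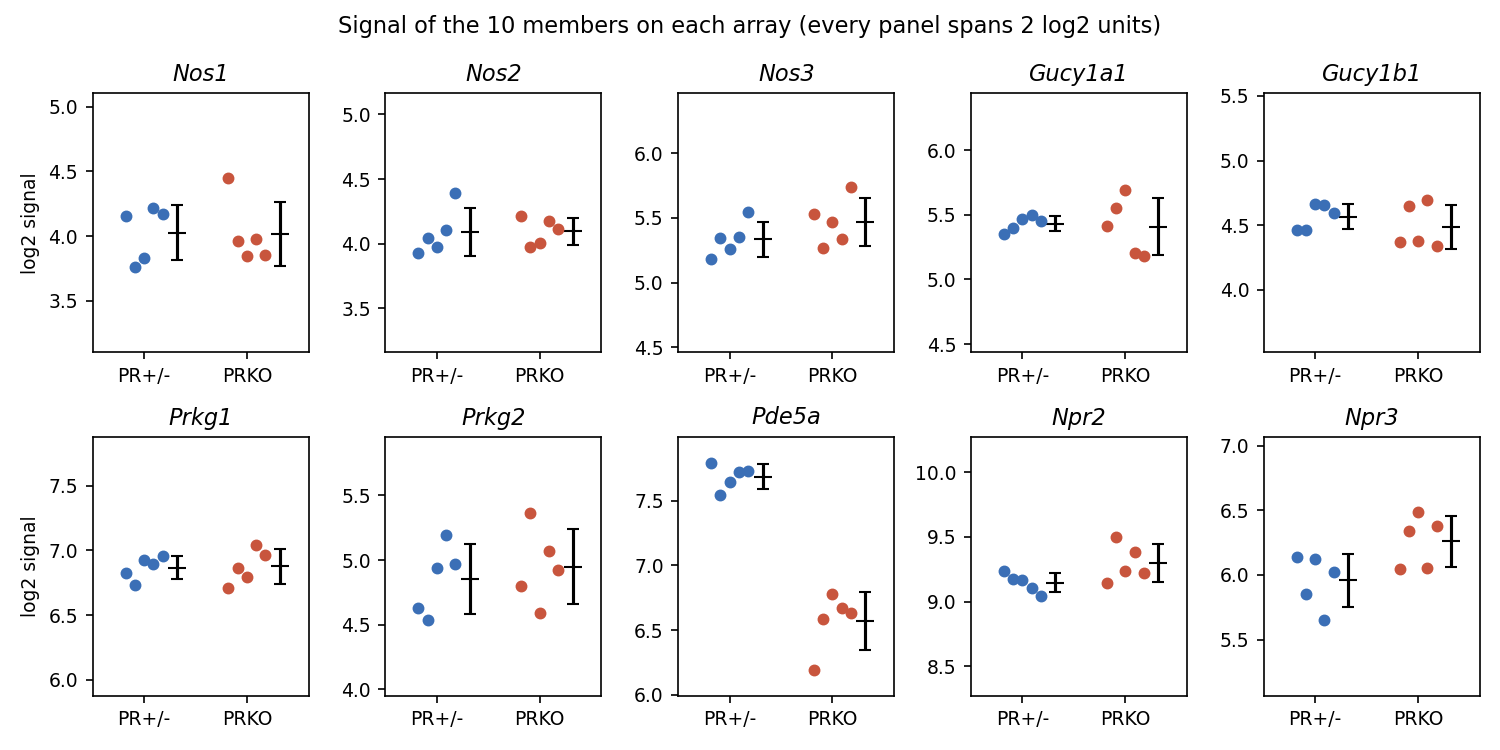
Log2 signal (vertical axis) of the 10 members on each of the 5 PR+/- and 5 PRKO arrays, 1 point per array, with the mean and SD as a bar beside the points; every panel spans the same range of 2 log2 units, around each gene's own signals. Pde5a is the panel in which the genotypes do not overlap, with PR+/- pools at 7.54 to 7.79 and PRKO pools at 6.19 to 6.78.

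The window upstream of the start of transcription was also described for the members. RefSeq promoters (build GRCm38.p6) were found for 7 of the 10 members, Nos1, Gucy1a1, Gucy1b1, Prkg1, Pde5a, Npr2 and Npr3, with 2 start sites each for Gucy1a1 and Prkg1. The 250 bases before the start are shown for Pde5a, the member that fell (chr3:122728908-122729157, plus strand), and for Gucy1b1, a member that did not pass and whose window holds a match (chr3:82074712-82074961, minus strand), both 5′ to 3′, with a match to a searched motif in capitals.
Pde5a: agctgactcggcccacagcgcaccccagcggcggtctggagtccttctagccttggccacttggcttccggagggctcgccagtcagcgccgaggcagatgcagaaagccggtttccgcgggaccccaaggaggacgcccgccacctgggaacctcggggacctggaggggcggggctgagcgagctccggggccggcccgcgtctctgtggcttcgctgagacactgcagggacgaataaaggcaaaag
Gucy1b1: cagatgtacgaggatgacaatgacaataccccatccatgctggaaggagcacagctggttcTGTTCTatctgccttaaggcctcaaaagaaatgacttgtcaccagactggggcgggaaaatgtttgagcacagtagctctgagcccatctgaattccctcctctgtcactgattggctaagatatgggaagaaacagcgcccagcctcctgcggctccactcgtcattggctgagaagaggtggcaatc

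Steroid receptors of the progesterone and glucocorticoid class bind an inverted repeat, searched here on both strands as GNACANNNTGTNC, and its half-site TGTTCT. The Pde5a window held neither, nor a CArG box, the element bound by serum response factor in muscle genes. The half-site was present in Gucy1b1, from base -189 to -184 counted from the start site, and on the opposite strand in Npr3, from base -31 to -26. Of 32851 windows of the same length, 16.1% held the half-site, 0.387% the full repeat and 1.47% a CArG box. Of the Pde5a window, 68.4% was G or C, against a median of 52.4% over all windows.

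The 3 nitric oxide synthases did not pass the test in either direction. Nos3, the endothelial enzyme, had log2 signals of 5.18, 5.34, 5.26, 5.35 and 5.55 in PR+/- and 5.53, 5.27, 5.47, 5.34 and 5.74 in PRKO. The genotypes overlapped in part, with 2 PR+/- pools below every PRKO pool and 1 PRKO pool above every PR+/- pool, and a log2 difference of 0.13 ± 0.098 (95% interval -0.08 to 0.34, limma adjusted p = 0.452). Among 9 markers of blood endothelium, 2 fell, none rose and 7 did not pass, which is 22.2% called against 4.96% of all genes. At an unadjusted p under 0.05 in limma, 3 of these markers were lower and 0 higher. Their mean log2 signal was 6.20 to 6.31 in PR+/- and 5.96 to 6.26 in PRKO. Pecam1, an adhesion molecule of endothelial junctions, fell by 0.27 ± 0.070, while Cdh5, the endothelial cadherin, had a log2 difference of -0.02. Their part in the value of Nos3 was not tested.

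Nos1, the neuronal enzyme, had log2 signals of 4.16, 3.76, 3.83, 4.22 and 4.17 in PR+/- and 4.45, 3.96, 3.85, 3.98 and 3.85 in PRKO. PRKO replicate 1 lay above all other pools, and the rest of the PRKO pools lay within the PR+/- span. The log2 difference was -0.01 ± 0.13 (95% interval -0.28 to 0.26). Of 8 neuronal markers, none passed (2 were higher and 0 lower at an unadjusted p under 0.05 in limma). The 2 higher were Elavl4 and Tubb3, both dim, so their signals may lie close to background. Elavl4, a neuronal RNA-binding protein, was at a log2 signal of 2.62 to 2.84 in PR+/- and 2.72 to 3.29 in PRKO. Tubb3 had means of 3.56 and 3.78. Prph was brighter, with means of 6.29 and 6.35, and had a log2 difference of 0.07.

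Nos2, the enzyme that inflammatory signals induce in macrophages and other cells, had log2 signals of 3.93, 4.04, 3.97, 4.11 and 4.39 in PR+/- and 4.22, 3.97, 4.01, 4.18 and 4.11 in PRKO. Its highest and its lowest pool were both PR+/-, and the log2 difference was 0.0082 ± 0.094 (95% interval -0.19 to 0.21). None of 7 macrophage and leukocyte markers passed, with 1 higher and 1 lower at an unadjusted p under 0.05. The probe sets of Nos1, Nos2, Gucy1b1 and Prkg2 were among the dimmest 50% of the array, where signal may lie close to background and an array understates a difference.

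Both subunits of soluble guanylyl cyclase, the receptor for nitric oxide, did not pass the test. Gucy1a1, the alpha 1 subunit, had log2 signals of 5.35, 5.40, 5.47, 5.49 and 5.45 in PR+/- and 5.42, 5.55, 5.69, 5.20 and 5.18 in PRKO. The PRKO pools lay on both sides of the PR+/- pools, 2 above and 2 below their span, and the SD was 0.22 against 0.059. Its log2 difference was -0.02 ± 0.098 (95% interval -0.23 to 0.19).

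Gucy1b1, the beta 1 subunit, had log2 signals of 4.46, 4.46, 4.66, 4.65 and 4.60 in PR+/- and 4.37, 4.65, 4.38, 4.70 and 4.34 in PRKO. Of the PRKO pools, 3 lay below every PR+/- pool and 1 above, and the log2 difference was -0.08 ± 0.090 (95% interval -0.27 to 0.11). The 2 genes are neighbours on the chromosome in the RefSeq annotation. Of the other subunits, Gucy1a2 had a log2 difference of 0.11 and Gucy1b2 one of -0.04, and neither passed.

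The kinases that cGMP activates did not pass either. Prkg1, the kinase of smooth muscle, had log2 signals of 6.82, 6.74, 6.92, 6.90 and 6.95 in PR+/- and 6.71, 6.87, 6.80, 7.04 and 6.97 in PRKO. Pools of the genotypes were interleaved, and the log2 difference of 0.0098 ± 0.081 had a 95% interval of -0.16 to 0.18. Prkg2, a membrane-bound kinase found in epithelia and brain, ranged from 4.54 to 5.19 in PR+/- and from 4.59 to 5.36 in PRKO, with a log2 difference of 0.10 ± 0.15 and an interval of -0.22 to 0.41. The dimmer of its probe sets differed by 0.11.

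Both natriuretic peptide receptors had positive differences that did not pass. Npr3 encodes the clearance receptor, which takes up natriuretic peptides and has no cyclase domain. Its log2 signals were 6.14, 5.85, 6.12, 5.65 and 6.02 in PR+/- and 6.05, 6.34, 6.48, 6.06 and 6.38 in PRKO. In PRKO, 3 pools lay above every PR+/- pool and 2 lay within the PR+/- span. The log2 difference of 0.30 ± 0.11 (95% interval 0.06 to 0.55) had an unadjusted p of 0.0183 in limma and an adjusted p of 0.143 over all genes.

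Npr2 encodes the cyclase receptor for C-type natriuretic peptide, which in the ovarian follicle helps to hold the oocyte in meiotic arrest. Its log2 signals were 9.24, 9.18, 9.17, 9.11 and 9.04 in PR+/- and 9.14, 9.50, 9.24, 9.38 and 9.22 in PRKO. All but 1 of the PRKO pools lay above all but 1 of the PR+/- pools, and the log2 difference was 0.15 ± 0.081 (95% interval -0.02 to 0.33, limma adjusted p = 0.300). Without the 2 pools high in Cyp11a1 the log2 differences of Npr2 and Npr3 were 0.16 and 0.17.

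**Figure D2:**
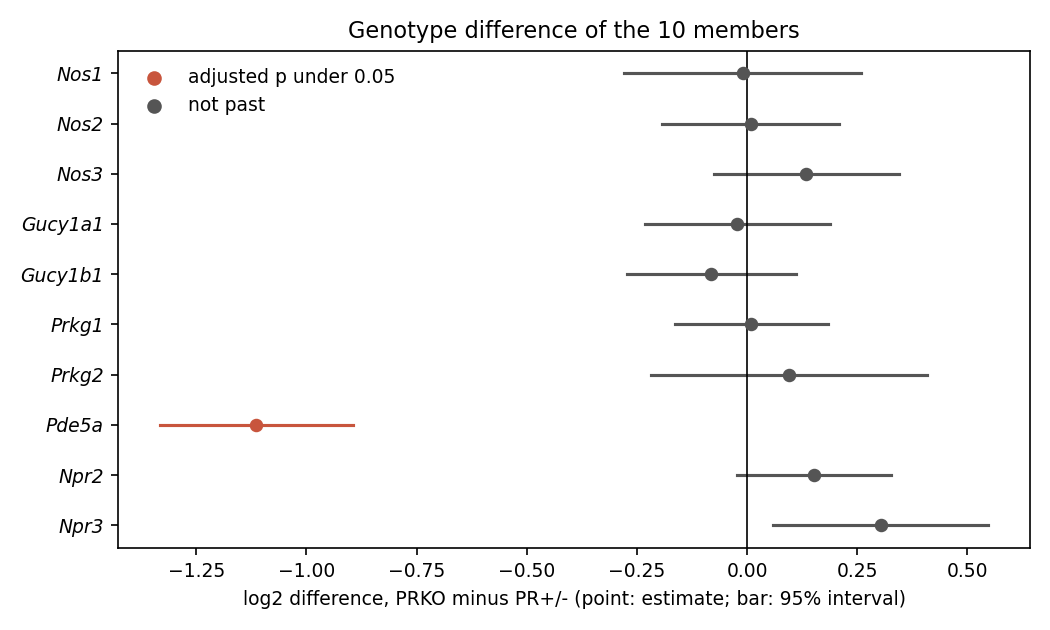
Log2 difference between genotypes, PRKO minus PR+/- (horizontal axis), of the 10 members, with its 95% interval from limma as a bar (n = 5 pools per genotype). The interval of Pde5a runs from -1.33 to -0.89, and those of the other 9 members lie between -0.28 and 0.55.

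Nppc, the gene of C-type natriuretic peptide and so of the ligand of Npr2, rose. It had log2 signals of 4.98, 5.05, 5.24, 4.81 and 5.17 in PR+/- and 5.72, 5.44, 5.69, 5.17 and 5.59 in PRKO. All PRKO pools but replicate 4 lay above every PR+/- pool. The log2 difference was 0.47 ± 0.11 (1.39-fold, limma adjusted p = 0.0265). Its call was lost when any 1 of PR+/- replicates 1, 2 and 4 or PRKO replicates 1, 3 and 5 was left out (adjusted p 0.0552 to 0.0733). Without the 2 pools high in Cyp11a1 the log2 difference was 0.37 (adjusted p = 0.144), and with the interquartile range as a covariate it was 0.29 (adjusted p = 0.385). None of 10 measured genes of granulosa, cumulus and steroid-making ovarian cells passed (2 higher and 1 lower at an unadjusted p under 0.05). Their mean log2 signal was 4.24 to 5.06 in PR+/- and 4.28 to 5.16 in PRKO.

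Among 12 genes of natriuretic and guanylin peptides, their receptors and the proteases that process them, Nppc was the 1 that passed and 11 did not. That is 8.33% called, against 4.96% of all genes. The sign of the difference was positive for 10 of the 12 and for 11195 of all 19938 genes, and the median log2 difference was 0.12. Many of the positive genes were dim, such as Gucy2f, Gucy2c and Nppa, with mean log2 signals of 2.81, 3.58 and 3.87 in PR+/-. Guca2b (7.31) was positive and brighter, and the 2 negative genes, Npr1 and Furin, were at 8.28 and 7.35. Dim signals may lie close to background, so the count of signs is a description. Npr1, the cyclase receptor for atrial and brain natriuretic peptides, had a log2 difference of -0.10 ± 0.086, with signals of 8.16 to 8.49 in PR+/- and 8.01 to 8.31 in PRKO.

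Among the other genes of cGMP phosphodiesterases, none passed the test. Of 15 measured, which include Pde6d, Pde6g and Pde6h, subunits without catalytic activity, limma called 0, and 0 had an unadjusted p under 0.05. Their log2 differences ran from -0.18, that of Pde2a, to 0.16, that of Pde11a, with a median of 0.04. Pde1a and Pde3a, of families that are active in smooth muscle, had log2 differences of -0.12 (95% interval -0.33 to 0.10) and 0.05 (-0.20 to 0.30), and Pde9a, a cGMP-specific enzyme, one of -0.15 (-0.30 to 0.01). These 5 were named for their role or as the ends of the range, after their values were seen. The 15 differed widely in level. In PR+/- the mean log2 signal was 2.83 for Pde6b, 2.86 for Pde6c and 4.23 for Pde11a, but 7.08 for Pde9a. For the dim genes a difference may be understated.

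The list of substrates and partners of the cGMP-dependent kinase, which also takes in 5 cGMP-gated channel genes and the cyclic nucleotide exporter gene Abcc4, held 7 of the 13 calls among related genes. Of its 18 measured genes, 6 fell, 1 rose and 11 did not pass, the channel genes and Abcc4 among the last. That is 38.9% called, against 4.96% of all genes, with a median log2 difference of -0.15. All 9 smooth muscle markers measured fell in the same pools, with log2 differences of -0.41 to -1.51, and several genes of the list, such as Mylk, Kcnma1 and Hspb6, are muscle genes as well. The part of the markers in these calls was not tested. The largest fall was that of Rgs2, which the kinase phosphorylates and which shortens Gq signalling, with signals of 8.29 to 8.62 in PR+/- and 6.47 to 7.05 in PRKO. The 1 gene of the list that rose was Pln, phospholamban, which inhibits the sarcoplasmic calcium pump. Its signals were 4.94 to 5.25 in PR+/- and 5.88 to 6.46 in PRKO. Both had been described in these data before the list was drawn up.

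Mylk, the kinase that starts contraction by phosphorylating myosin light chain, had log2 signals of 9.01, 8.89, 8.90, 8.84 and 8.99 in PR+/- and 8.22, 8.25, 8.28, 8.25 and 8.43 in PRKO. The genotypes did not overlap, and Mylk fell by 0.64 ± 0.071 (1.56-fold lower, limma adjusted p = 7.35e-05). Kcnma1, the pore of the large-conductance potassium channel, fell by 0.39 ± 0.071, but its second probe set had a log2 difference of -0.04, and with the mean of both it was -0.22 and not called (adjusted p = 0.117). With the interquartile range as a covariate it was -0.35, again without a call (adjusted p = 0.0894).

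Ppp1r12b, a targeting subunit of myosin phosphatase, was called lower through the brightest of its 7 probe sets, at -0.38 ± 0.080. The other 6 had log2 differences of -0.00054 to 0.32, and their mean with the first gave 0.07 (adjusted p = 0.584), so the probe sets disagree in direction. Its relative Ppp1r12a had a log2 difference of -0.22 (adjusted p = 0.0959). Hspb6, a small heat shock protein that the kinase phosphorylates in muscle, and Trpc6, a cation channel, fell by 0.37 ± 0.093 and 0.34 ± 0.088. Hspb6 lost its call without any 1 of 7 arrays (adjusted p 0.0519 to 0.1) and Trpc6 without any 1 of 6 (0.0644 to 0.0931).

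Vasp encodes an actin regulator whose phosphorylation, which an array does not measure, is widely used as a reporter of the kinase's activity. Its RNA had log2 signals of 6.69, 6.66, 6.80, 6.62 and 6.73 in PR+/- and 6.46, 6.57, 6.48, 6.56 and 6.53 in PRKO. The pools did not overlap, yet the log2 difference of -0.18 ± 0.067 did not pass (limma adjusted p = 0.139). Irag1, named Mrvi1 in the annotation, is the protein through which the kinase acts on calcium release, and had a log2 difference of -0.22 ± 0.079 (adjusted p = 0.130).

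Genes that act on nitric oxide synthesis changed in part. Cav1, the caveolar protein that binds and restrains the endothelial synthase, had log2 signals of 8.92, 8.90, 8.93, 8.83 and 8.82 in PR+/- and 8.02, 8.33, 8.47, 8.19 and 8.29 in PRKO. It fell by 0.62 ± 0.084 (1.54-fold lower, limma adjusted p = 4.71e-04). Its difference lies within the range of the 9 smooth muscle markers in the same pools, -0.41 to -1.51. The part of those markers in the fall of Cav1 was not tested. Cav1 was the 1 of 10 measured partners of the synthases that passed (10% called, against 4.96% of all genes). The median log2 difference of the 10 was -0.10.

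The 2 arginases, which consume arginine, the substrate of the synthases, changed in opposite directions. Arg2, the mitochondrial arginase, fell by 0.66 ± 0.088 (1.58-fold lower, limma adjusted p = 3.96e-04), with signals of 6.23 to 6.44 in PR+/- and 5.56 to 5.94 in PRKO. Arg1, the cytosolic arginase, rose by 0.62 ± 0.11, from 6.74 to 7.21 in PR+/- to 7.35 to 7.87 in PRKO. For both arginases the genotypes did not overlap. Of the 17 measured genes of arginine supply, of the cofactor tetrahydrobiopterin and of methylated arginine, 3 fell, 1 rose and 13 did not pass. That is 23.5% called, against 4.96% of all genes, with a median log2 difference of -0.09.

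Ddah2, which breaks down a methylated arginine that inhibits the synthases, fell by 0.34 ± 0.079 (adjusted p = 0.0223), with signals of 6.29 to 6.63 in PR+/- and 6.04 to 6.26 in PRKO. Asl, which makes arginine from argininosuccinate, fell by 0.38 ± 0.10 (adjusted p = 0.0494). Asl lost its call without any 1 of 8 arrays (adjusted p 0.0523 to 0.132) and Ddah2 without any 1 of PR+/- replicates 1, 2 and 3 and PRKO replicate 3 (0.057 to 0.0694). With the interquartile range as a covariate their log2 differences were -0.23 (adjusted p = 0.469) and -0.31 (adjusted p = 0.192). Gch1, the first enzyme of tetrahydrobiopterin synthesis, had a log2 difference of 0.30 with an interval of -0.12 to 0.72.

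Over the 74 measured genes of these 6 related lists, of 80 sought, 10 fell, 3 rose and 61 did not pass, which is 17.6% called against 4.96% of all genes. Their median log2 difference was -0.0024. With the dimmest 50% of probe sets removed, 16 of 48 related genes and 1201 of all 11290 genes left were called. The lists were drawn up with earlier results of these data known, and several called genes are muscle genes. The shares are therefore a description. The 74 counted 8 calls without PR+/- replicate 2 (2 higher, 6 lower), 8 without PRKO replicate 3 (2 and 6), 8 without PRKO replicates 1 and 5 (2 and 6) and 10 without the 2 pools high in Cyp11a1 (2 and 8). With the interquartile range as a covariate 6 were called (2 and 4).

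**Figure D3:**
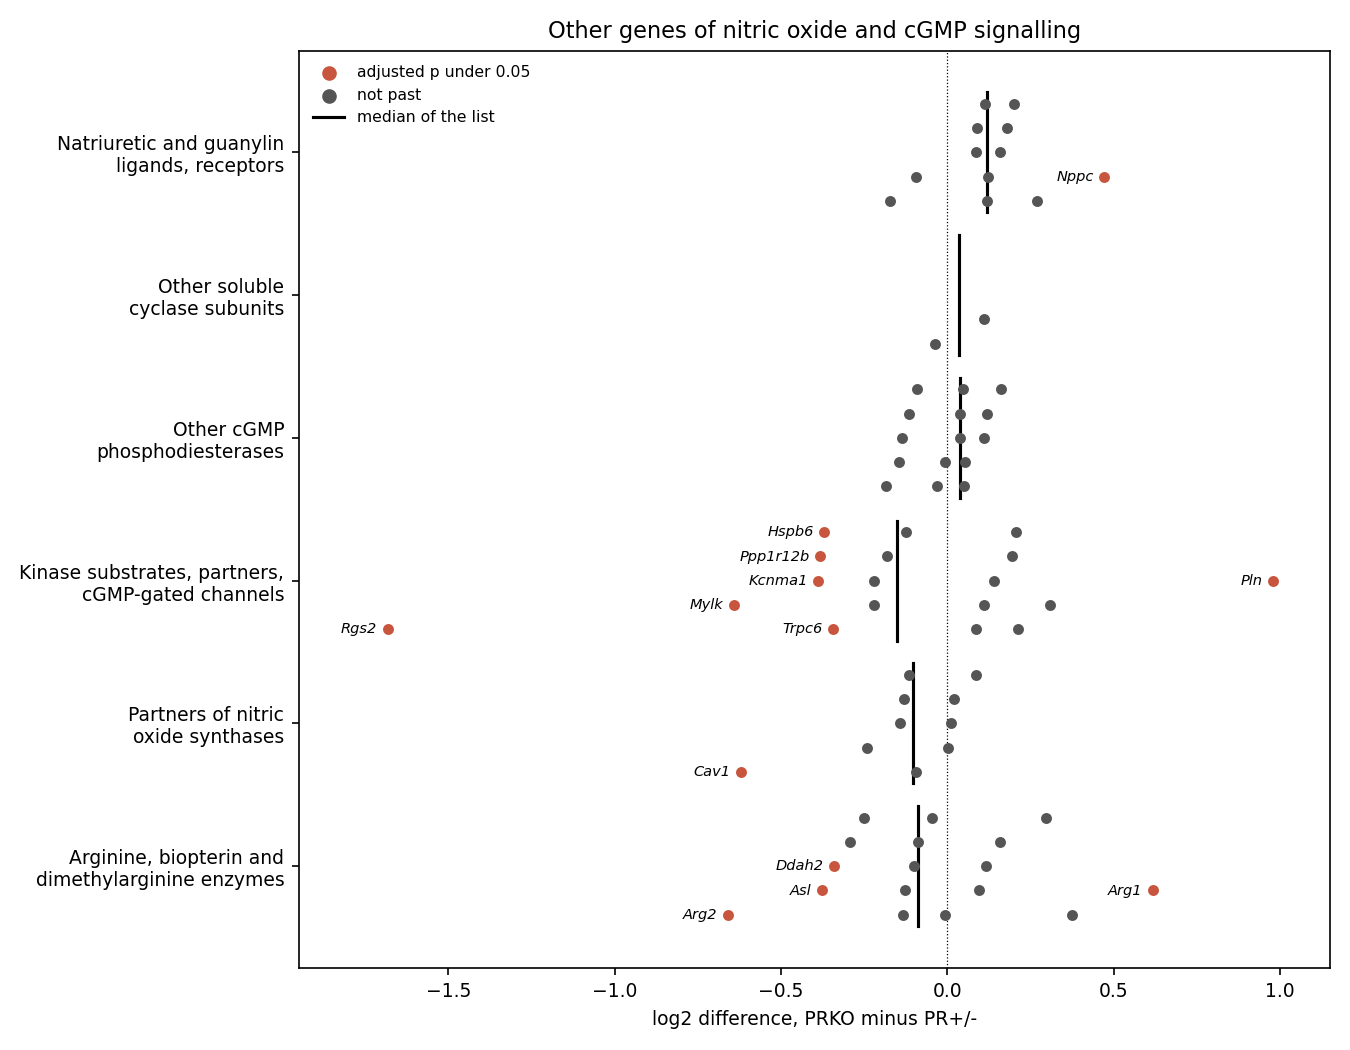
Log2 difference between genotypes, PRKO minus PR+/- (horizontal axis), of the 74 related genes, 1 point per gene, grouped in 6 lists, with a black line at each list's median; red points passed the limma adjusted p of 0.05 and are named, and the height of a point within its list has no meaning. The 15 other genes of cGMP phosphodiesterases lie between -0.18 and 0.16, while the list of kinase substrates, partners and cGMP-gated channels runs from Rgs2 at -1.68 to Pln at 0.98.

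Markers of smooth muscle, the tissue in which Pde5a is best known, were lower in the same pools. All 9 fell, with log2 differences of -0.41 to -1.51 and a median of -0.72, and the -1.11 of Pde5a lies within that range. Acta2, the smooth muscle alpha actin, went from 12.2 to 12.3 in PR+/- to 11.4 to 11.8 in PRKO, and Myh11, the smooth muscle myosin heavy chain, from 10.5 to 10.8 to 9.57 to 10.1. The mean log2 signal of the 9 markers was 9.11, 9.14, 9.12, 9.00 and 9.15 in PR+/- and 8.12, 8.29, 8.34, 8.38 and 8.32 in PRKO, a difference of -0.82. With that mean taken off each array, the difference of Pde5a was -0.30. The values then ran from -1.59 to -1.28 in PR+/- and from -1.93 to -1.55 in PRKO. They overlapped only in that PRKO replicate 3 (-1.55) lay above PR+/- replicate 2 (-1.59), and the other PRKO pools lay below every PR+/- pool. Taking the mean off treats Pde5a as if it moved by the same log2 amount as the markers, which was not tested. Of 5 pericyte markers, 3 fell and 2 did not pass (60% called, against 4.96% of all genes). Their mean signal was 6.717 to 6.999 in PR+/- and 6.13 to 6.34 in PRKO. Of 5 fibroblast markers, 1 fell and 4 did not pass (20% called, against 4.96% of all genes). In pooled whole oviducts, fewer muscle cells and less RNA per muscle cell cannot be told apart.

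The difference of Prkg1 lay outside the range of those of the 9 muscle markers. Its 95% interval of -0.16 to 0.18 lay above -0.41, the estimate of Lmod1 and the smallest fall among the 9 markers. The lower bounds of Gucy1a1 (-0.23) and Gucy1b1 (-0.27), whose products work with it in smooth muscle, also lay above -0.41. The interval of Lmod1 itself ran from -0.58 to -0.23, which is as high as those 2 bounds. Gucy1b1 was among the dimmest 50% of the array, where a difference may be understated. This was not particular to these genes: Kcnmb1, of the list of kinase substrates and partners, had a log2 difference of -0.12 (95% interval -0.30 to 0.05). How much of each signal came from muscle was not measured in whole oviduct. The difference between Prkg1, Gucy1a1, Gucy1b1 or Kcnmb1 and the markers was not tested.

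**Figure D4:**
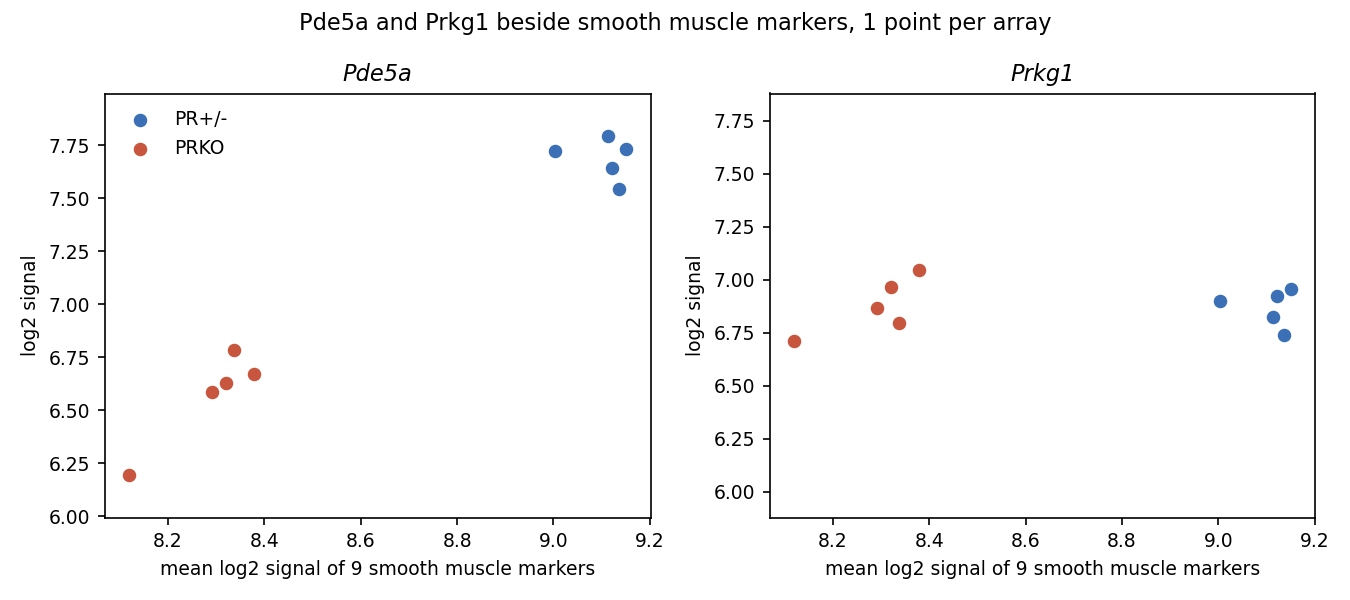
Log2 signal of Pde5a (left) and Prkg1 (right) on the vertical axis against the mean log2 signal of 9 smooth muscle markers on the horizontal axis, 1 point per array, 5 PR+/- and 5 PRKO; both vertical axes span 2 log2 units. PRKO arrays lie at 8.12 to 8.38 on the marker axis and PR+/- arrays at 9.00 to 9.15; Pde5a separates the genotypes and Prkg1, at 6.71 to 7.04 in PRKO and 6.74 to 6.95 in PR+/-, does not.

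The genes whose signals were most like those of Pde5a over the 10 arrays were Bgn, the proteoglycan biglycan (Pearson r = 0.991), Clic4, a chloride intracellular channel protein (0.987), and Flna, the actin cross-linker filamin A (0.986). These values are a description, since the 10 arrays form 2 genotypes and any gene that fell follows the same step. Bgn fell by 1.05, Clic4 by 0.85 and Flna by 0.54. With each genotype's mean taken off, the most similar were Acbd5, a peroxisomal lipid-binding protein (0.973), Ppp1r12a (0.938) and Lrch2 (0.937). Without PR+/- replicate 2 and PRKO replicate 1, the pools farthest from the median of Pde5a, these were 0.934, 0.696 and 0.692, so the last 2 rest in part on those pools. They too are a description, since they were picked as the highest among 19938 genes over 10 arrays, and that choice alone raises them.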

How the data were processed

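RNA of 10 pools of whole oviduct, 5 PR+/- and 5 PRKO, was biotin-labelled with an Affymetrix whole-transcript kit, per the labels' protocols. The values used were those deposited by the authors, 1 per probe set and array, made with Partek, per the submitters' processing notes. How background, normalization and probe summary were handled was not given in the sources used here. That the deposited values are log2 was inferred from their range, and fold changes hold only if so. Arrays had nearly equal medians (5.20 to 5.28) and were not normalized again. No 2 arrays were identical.

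Of 35557 rows, 21789 had 1 gene symbol in the platform's annotation, 1621 several and 12147 none. The 2 last kinds were not used for genes. The probe set with the highest mean stood for its gene (19938 genes). Symbols were updated through gene IDs against a RefSeq table, and 21698 rows matched. PRKO was set against PR+/- in limma 3.58.1 (R 4.3.3) with moderated variances (prior degrees of freedom 6.08, residual 8) and Benjamini-Hochberg adjustment over all genes; an adjusted p under 0.05 was a call. The procedure was tested on simulated data. No filter on dim signal was applied. The spread that enters a p-value is that between pools.

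The members, lists and tests were chosen with earlier results of these data known. Named are all members, every related gene that was called, Npr1, Nppc, Irag1, Vasp and single markers; other genes were named after their values were seen. Alternatives were quantile, median and cyclic loess normalization, 2 filters on dim probe sets, the mean of probe sets, every row tested, 3 other variance settings, the replicate number as a block, the interquartile range of each array as a covariate, each array or 2 pairs of arrays left out, and other thresholds.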

Additional observations from a re-analysis of the deposited data

Results flagged for a closer look

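In 66 groups of 5 values, those of the members, Pgr, the named related genes and 6 markers in each genotype, 5 held a pool whose gap to the nearest of the others exceeded 0.71 of the group's range. Chance gives such a gap in about 1 of 20 groups. For Nos1, PRKO replicate 1 stood at a log2 signal of 4.45, with the other PRKO pools at 3.85 to 3.98. For Acta2, PRKO replicate 1 stood at 11.36, with the others at 11.68 to 11.79, and that pool was also the lowest for Pde5a. For Mylk, PRKO replicate 5 stood at 8.43, above the next pool at 8.28. For Arg2, PR+/- replicate 1 stood at 6.23, below the next at 6.39. For Cyp11a1, PR+/- replicate 4 stood at 7.04, with the other PR+/- pools at 3.05 to 3.92.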

How the results depend on the processing

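Under all 26 alternatives exactly 1 member was called, and it was Pde5a, with log2 differences of -1.17 to -1.01 and adjusted p-values of 6.91e-07 to 0.00219. The sign of Nos1, Nos2, Nos3, Gucy1a1, Gucy1b1, Prkg1 and Prkg2 changed in 1 to 11 alternatives without a call, and that of Npr2 and Npr3 in none. Pgr kept its call in all 26 (-1.10 to -1.02).

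Over all genes, 988 were called. The count was 348 with the interquartile range as a covariate, 562 without PR+/- replicate 4 and PRKO replicate 3, and 581 to 1165 with 1 array left out (581 without PR+/- replicate 1 and 598 without PR+/- replicate 2). It was 412 at an adjusted p under 0.01 and 1731 under 0.1. For the related genes the 13 calls became 6 with that covariate, 8 without PRKO replicates 1 and 5, 8 to 12 with 1 array left out and 7 at the stricter threshold. Quantile normalization gave 4 higher and 8 lower related genes, against 3 and 10. Ppp1r12b reversed to 0.066 with the mean of its 7 probe sets, 6 of which had differences of -0.00054 to 0.32. Of other changes with the settings, the cause was not tested.

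The replicate number did not meet the rule set for pairing, a correlation over 0.1 in each pair: after genotype means were taken off, 4 of 5 same-numbered pairs were over 0.1 and 1 was at -0.0126 (highest 0.159). As a hint from the data, 3 of 5 matched their own number best. With it as a block, 1042 genes, 14 related genes and 1 member were called. The dimmest 50% of probe sets included those of Nos1, Nos2, Gucy1b1 and Prkg2, which limits what can be said of them.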
